A study of Mus musculus with 8 samples.

Results

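FGF ligands and FGF receptors were examined after knock-down of Rad21 in R1/E, an established line of mouse embryonic stem cells (ESCs). The members are 9 genes, the 5 ligands Fgf4, Fgf5, Fgf8, Fgf15 and Fgf17 and the 4 receptors Fgfr1, Fgfr2, Fgfr3 and Fgfr4, of 18193 genes on the array. They were chosen by gene symbol, with earlier results of these data known. Every probe set that carries one of these symbols alone was taken, which gave 23 of 45037 probe sets (10 for ligands and 13 for receptors). The brightest probe set of a gene over all arrays stands for the gene, and the others are given beside it. The knock-down group consisted of 4 arrays of R1/E cells in which esiRNA targeted Rad21, a gene for one of the core proteins of cohesin. The Luc control group consisted of 4 arrays of R1/E cells transfected with esiRNA against luciferase, which has no target in mouse cells. An esiRNA is a mixture of many short interfering RNAs cut by an enzyme from one long double-stranded RNA. Both groups came from the same line, received 800 ng of esiRNA per 80000 cells and were collected at 48 h, and the labels call the arrays biological replicates 1 to 4.

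FGFs are secreted proteins that bind receptor tyrosine kinases together with heparan sulphate. A bound receptor phosphorylates docking proteins, recruits the Grb2 and Sos adaptors and activates the ERK kinase cascade, whose targets include both transcription factors of the ETS family and inhibitors that dampen the same cascade. In mouse ESCs Fgf4 is the best known autocrine ligand, and signalling through ERK readies the cells to leave self-renewal. In the early mouse embryo Fgf4 comes from the epiblast, and Fgfr1 and Fgfr2 receive it in the lineages around it.

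Array values are on the log2 scale after GCRMA, which corrects each probe for background according to its GC content and brings all arrays to a similar distribution. A difference of 1 is therefore a doubling, dim probe sets lie on a low plateau, and a mean under 4 is called dim here. Levels of different probe sets cannot be compared with each other. All changes below are the Rad21 knock-down minus the Luc control, tested with limma and adjusted (Benjamini-Hochberg) across all 45037 probe sets, and a call means an adjusted p under 0.05. The targeted transcript was lower at all 3 of its probe sets, by 1.58 ± 0.21 (SE) at the brightest one (12.08 ± 0.43 in the knock-down and 13.67 ± 0.19 in the Luc control, SD, n = 4 each, limma adjusted p = 0.00222). Array medians lay between 3.08 and 3.16, and arrays of the same group correlated at 0.998 to 0.999 across probe sets. Replicates 1 and 2 lay apart from replicates 3 and 4 in both groups on the second principal component (11.6% of the variance, against 66.2% for the first), and no label gives a reason. Values within these pairs of replicates are therefore given for some members and some other genes. With 4 arrays per group the precision of all values is limited.

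Of the 9 genes, 2 were called, and they moved in opposite directions. Fgf4 fell to 30.5% of its level in the Luc control, and Fgfr2 rose 2.66-fold. The 2 genes are 22.2% of the members, beside 22.6% of all 18193 genes called in either direction (10.1% up and 12.6% down), so the share of members called was near that of the array as a whole. At the level of probe sets 6 of 23 were called, the 4 of Fgf4 as lower and 2 of the 3 of Fgfr2 as higher, or 26.1% beside 14.9% of all probe sets (6.47% up and 8.4% down). Knock-down and control arrays lay wholly apart at 8 of the 23 probe sets (34.8%) and for 2 of the 9 genes (22.2%), beside 19.4% of all probe sets and 27.8% of all genes. Both group means were dim at 12 of the 23, where array values ranged from 1.733 to 4.097 and changes from -0.053 to 0.20. None of these 12 was called. In total RNA of a culture, less RNA in each cell and fewer cells that contain it cannot be told apart.

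**Figure D1:**
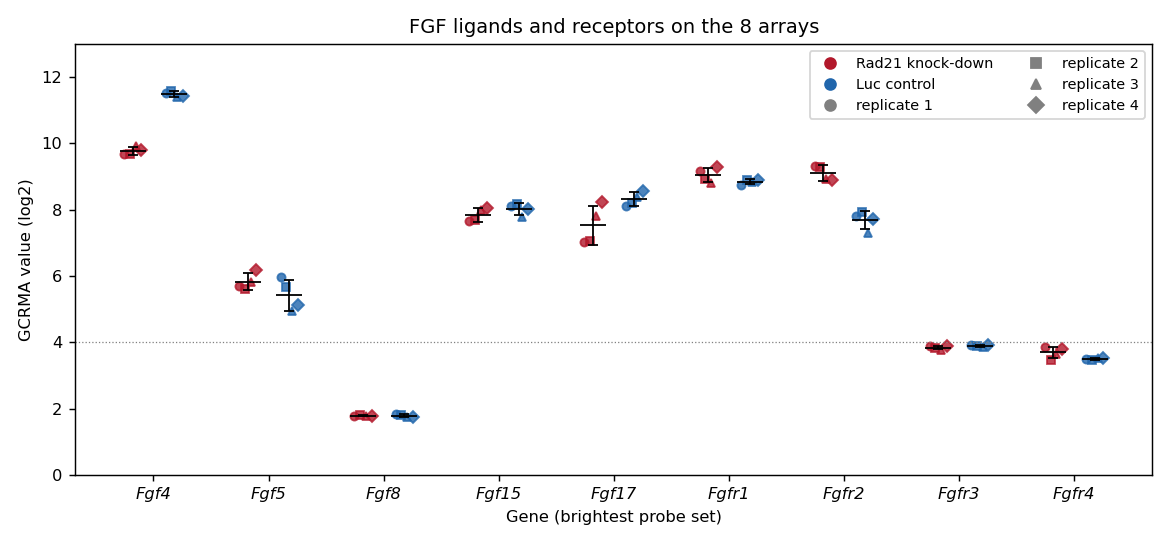
Log2 GCRMA value of the brightest probe set of each FGF ligand and receptor on the 8 arrays. Points are arrays (shape marks the replicate number), bars are the mean and SD of 4 arrays, and the dotted line marks a value of 4; Fgf4 lies between 9.67 and 9.92 in the knock-down and between 11.40 and 11.59 in the Luc control, Fgfr2 lies between 8.88 and 9.31 in the knock-down and between 7.31 and 7.94 in the Luc control, and the groups overlap for the other genes.

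Because Fgf4 and Fgfr2 carry the calls, the sequence at their annotated starts is shown first. RefSeq promoters of GRCm38.p6, from 250 bases before to 50 bases after the start, were found for 5 of the 9 members (Fgf4, Fgf5, Fgfr2, Fgfr3 and Fgfr4). The other 4 were Fgf8, Fgf15, Fgf17 and Fgfr1. The Fgf4 promoter covers chr7:144861136-144861435 on the plus strand and the Fgfr2 promoter covers chr7:130266759-130267058 on the minus strand. Both are printed 5′ to 3′, and capitals mark matches, on either strand, to GGGCGG (the GC box), to CCAAT (the CCAAT box), to TATAAA (the TATA box), to its variant TATATA (a palindrome, so both strands give the same match) and to ATGCAAAT (the octamer).
Fgf4: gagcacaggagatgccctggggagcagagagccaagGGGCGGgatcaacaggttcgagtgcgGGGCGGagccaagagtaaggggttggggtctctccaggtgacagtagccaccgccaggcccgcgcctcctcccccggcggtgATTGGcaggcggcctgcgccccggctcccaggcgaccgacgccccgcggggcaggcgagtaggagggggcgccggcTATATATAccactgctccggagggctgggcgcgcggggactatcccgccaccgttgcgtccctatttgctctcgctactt
Fgfr2: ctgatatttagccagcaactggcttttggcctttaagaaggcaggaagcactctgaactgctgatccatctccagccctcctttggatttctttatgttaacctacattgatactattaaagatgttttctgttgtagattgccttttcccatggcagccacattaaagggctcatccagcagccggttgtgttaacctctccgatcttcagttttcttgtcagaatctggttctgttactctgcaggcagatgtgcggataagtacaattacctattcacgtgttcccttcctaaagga
In the Fgf4 promoter GGGCGG began at -214 and -188, CCAAT lay on the opposite strand from -106 to -102, and TATATA matched at -30 and again, overlapping, at -28, with the start base counted as 0. The Fgfr2 promoter held no match to any of the 5 motifs. Among 32851 promoters of this length GGGCGG was held by 35.7%, CCAAT by 37.4%, TATAAA by 13.6%, TATATA by 5.67% and ATGCAAAT by 1.74%. GC content was 69.7% for Fgf4 and 43.7% for Fgfr2, beside a median of 52.7%. A match is a description of the letters and not a mapped binding site, and the arrays do not show which start was used.

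Fgf4 was measured by 4 probe sets, and all of them were lower in the knock-down with no overlap of the groups. At the brightest, 1420085_at, the 4 knock-down arrays read 9.67, 9.67, 9.92 and 9.81, against 11.51, 11.59, 11.40 and 11.44 in the 4 Luc control arrays. The highest knock-down value was thus well below the lowest control value, and the arrays within each group lay close together. The mean was 9.77 ± 0.12 in the knock-down and 11.48 ± 0.08 in the Luc control (SD, n = 4 each), a change of -1.71 ± 0.07 (SE, 95% interval -1.87 to -1.56), or 3.28-fold lower, with a limma adjusted p of 1.35e-05. Leaving out any 1 of the 8 arrays gave adjusted p-values between 4.79e-05 and 1.74e-04.

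The other Fgf4 probe sets differed in brightness and in the size of the fall. The probe set 1420086_x_at read 9.42, 9.46, 9.68 and 9.69 in the knock-down and 11.23, 11.40, 11.21 and 11.28 in the Luc control, a change of -1.72 (limma adjusted p = 2.07e-05). At 1449729_at the values were 3.27, 3.17, 3.15 and 3.05 in the knock-down and 5.03, 4.86, 4.59 and 4.15 in the Luc control, a change of -1.499 ± 0.18 (SE, limma adjusted p = 0.00134). Here the knock-down lies on the dim plateau, where GCRMA compresses differences. With the dim arrays raised to 4, a bound computed after the values were seen, the knock-down was lower by at least 0.66 at this probe set. These 3 probe sets were designed on the same expressed sequence tag (BB709552), so they do not measure Fgf4 independently. The remaining probe set, 1450282_at, read 5.47, 5.25, 5.21 and 5.29 in the knock-down and 6.05, 6.37, 5.97 and 6.49 in the Luc control. It gave the smallest fall, -0.91 ± 0.12 (SE, limma adjusted p = 0.00250), and in replicates 3 and 4 taken alone it was not called (adjusted p = 0.0956, limma).

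**Figure D2:**
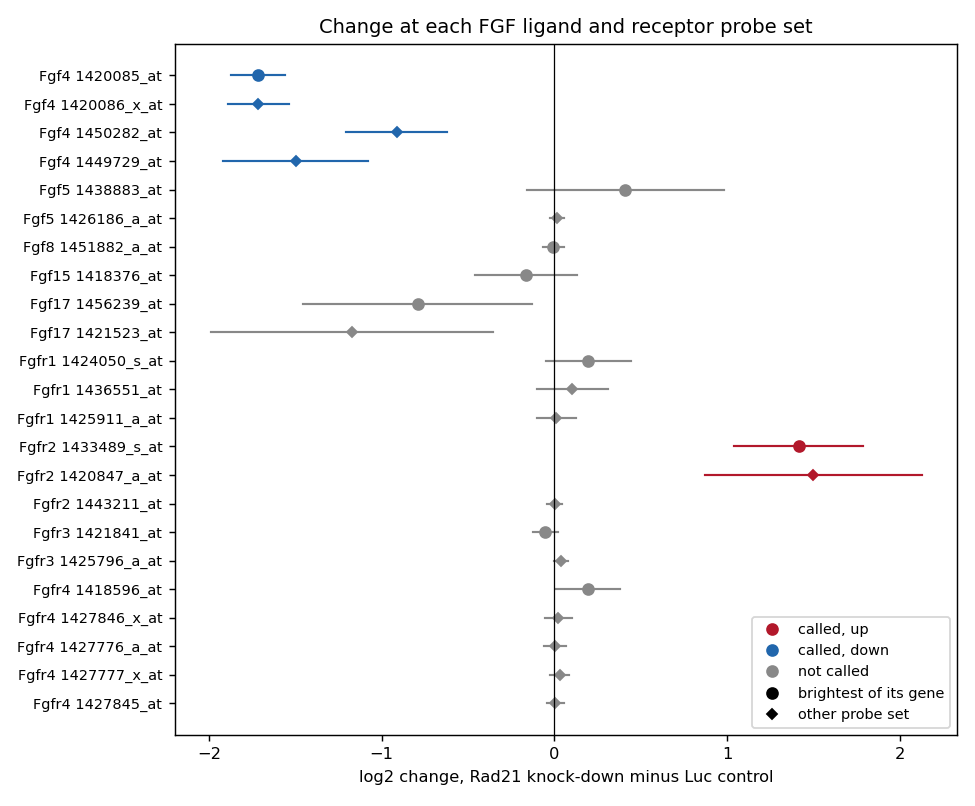
Change on the log2 scale (Rad21 knock-down minus Luc control) at all 23 probe sets of the FGF ligands and receptors, with 95% intervals from limma (4 arrays per group). Circles mark the brightest probe set of a gene; the 4 Fgf4 probe sets lie between -1.72 and -0.91, 2 Fgfr2 probe sets lie at 1.41 and 1.498, and those not called are grey.

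Fgf17, a ligand of the same subfamily as Fgf8, had lower means in the knock-down at both of its probe sets without being called. At the brightest, 1456239_at, the knock-down arrays read 7.02, 7.05, 7.82 and 8.22 and the Luc control arrays read 8.13, 8.19, 8.39 and 8.58. Replicates 1 and 2 of the knock-down were the low ones, and replicate 4 of the knock-down lay within the control range. The change was -0.79 ± 0.28 (SE, 95% interval -1.46 to -0.13, limma adjusted p = 0.126). At 1421523_at the knock-down arrays read 6.39, 6.27, 7.55 and 7.52 and the Luc control arrays read 8.04, 7.66, 8.38 and 8.35, with a change of -1.17 ± 0.35 (SE, limma adjusted p = 0.0687). The groups did not overlap there, although the margin between the highest knock-down array and the lowest control array was small. Leaving out replicate 4 of the knock-down brought the brightest probe set to a change of -1.02 and an adjusted p of 0.0294 in limma, and leaving out replicate 3 of the knock-down brought 1421523_at to an adjusted p of 0.0450. Each was called in only 1 of the 8 fits that left out an array. Limma adjusted p-values reached 0.275 at the brightest probe set and 0.163 at 1421523_at.

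Fgf15, an endocrine ligand whose human counterpart is FGF19, read 7.65, 7.68, 8.0 and 8.06 in the knock-down and 8.10, 8.18, 7.76 and 8.01 in the Luc control at its single probe set, 1418376_at. The groups overlapped, and the change was -0.16 ± 0.13 (SE, 95% interval -0.46 to 0.13, limma adjusted p = 0.576). Leaving out 1 array moved it between -0.25 (without replicate 3 of the Luc control) and -0.10 (without replicate 1 of the knock-down), and it was -0.11 without replicate 2 of the knock-down and without replicate 2 of the Luc control. Fgf5, a ligand best known as a marker of the post-implantation epiblast, read 5.71, 5.60, 5.82 and 6.19 in the knock-down and 5.96, 5.66, 4.94 and 5.12 in the Luc control at 1438883_at. Replicates 3 and 4 of the control were the low ones and the groups overlapped, with a change of 0.41 ± 0.24 (SE, 95% interval -0.16 to 0.98, limma adjusted p = 0.419). It was 0.25 without replicate 3 of the Luc control and 0.59 without replicate 1 of the Luc control. The other Fgf5 probe set, 1426186_a_at, was dim in both groups, with means of 1.78 in the knock-down and 1.76 in the Luc control. Fgf8, which patterns the gastrulating embryo, was on the dim plateau at its only probe set (1.77, 1.79, 1.79 and 1.76 in the knock-down and 1.83, 1.81, 1.73 and 1.76 in the Luc control). Its change of -0.006 ± 0.03 (SE, limma adjusted p = 0.962) says only that no signal above background was measured in either group.

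Among the receptors Fgfr2 was the called gene. Fgfr2 is known for its roles in the trophectoderm and primitive endoderm of the mouse blastocyst and in epithelia. At its brightest probe set, 1433489_s_at, the knock-down arrays read 9.31, 9.30, 8.94 and 8.88 and the Luc control arrays read 7.80, 7.94, 7.31 and 7.73. All 4 knock-down arrays lay above all 4 control arrays. The mean was 9.11 ± 0.23 in the knock-down and 7.69 ± 0.27 in the Luc control (SD, n = 4 each), a change of 1.41 ± 0.16 (SE, 95% interval 1.04 to 1.79, limma adjusted p = 0.00108). Without any 1 array the adjusted p stayed between 0.00181 and 0.00481.

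The dimmer Fgfr2 probe set 1420847_a_at moved the same way. It read 5.42, 6.05, 5.43 and 4.94 in the knock-down and 4.30, 4.22, 3.87 and 3.46 in the Luc control, again with no overlap. The Luc control averaged 3.96 here, just under the dim limit. The change was 1.498 ± 0.27 (SE, limma adjusted p = 0.00856), or at least 1.33 with dim arrays raised to 4, and replicates 3 and 4 alone did not pass (adjusted p = 0.0629, limma). The remaining probe set, 1443211_at, lay on the dim plateau with means of 2.03 in the knock-down and 2.02 in the Luc control and carries no information on a change. The suffix _s_at marks a probe set whose probes match more than one transcript, and the splice forms of Fgfr2, which differ in the ligands they bind, cannot be separated with these values.

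Fgfr1, the receptor most often linked to Fgf4 in mouse ESCs, read 9.15, 8.92, 8.81 and 9.29 in the knock-down and 8.74, 8.90, 8.84 and 8.91 in the Luc control at 1424050_s_at. The groups overlapped, with a change of 0.20 ± 0.11 (SE, 95% interval -0.05 to 0.44, limma adjusted p = 0.351). Without replicate 4 of the knock-down it was 0.11. Its other probe sets, 1436551_at and 1425911_a_at, had dim means in both groups and changes of 0.10 and 0.0095. The change of Fgfr2 exceeded that of Fgfr1 by 1.22 ± 0.21 (SE, exact two-sided permutation p = 0.0286 over 70 splits of the arrays, the smallest this design can give, and 0.0286 after adjustment over 4 pairs of genes). These 4 pairs were chosen after the values had been seen. Each sets a called gene beside one not called at its brightest probe set, so these p-values add nothing to the calls.

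Fgfr3 and Fgfr4, receptors with prominent roles in growing cartilage and in the liver, were dim in both groups. Fgfr3 averaged 3.83 ± 0.05 in the knock-down and 3.89 ± 0.03 in the Luc control at 1421841_at (SD, n = 4 each), and its second probe set was at 1.84 in the knock-down and 1.81 in the Luc control. At this second probe set the groups did not overlap, but the change of 0.04 was not called (limma adjusted p = 0.254). Fgfr4 read 3.85, 3.47, 3.64 and 3.81 in the knock-down and 3.48, 3.47, 3.51 and 3.52 in the Luc control at 1418596_at. The knock-down arrays were more spread than the control arrays, and the change of 0.20 ± 0.08 (SE) was not called (limma adjusted p = 0.177). Without replicate 2 of the knock-down it was 0.27 with an adjusted p of 0.0184 in limma. That was the only 1 of the 8 fits leaving out an array that passed, and limma adjusted p-values reached 0.361. The other 4 probe sets of Fgfr4 changed by 0.0021 to 0.031.

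The members were compared next within each pair of replicates, since replicates 1 and 2 lie apart from 3 and 4. Fgf4 changed by -1.87 in replicates 1 and 2 and by -1.55 in replicates 3 and 4, and Fgfr2 by 1.44 and 1.39, and each was called by limma within both pairs (adjusted p = 0.00164 and 0.00663 for Fgf4, 0.00254 and 0.0353 for Fgfr2). Of all genes 19.9% were called in replicates 1 and 2 and 15.3% in replicates 3 and 4. Rad21 itself changed by -1.80 in replicates 1 and 2 and by -1.36 in replicates 3 and 4. The ligands that were not called behaved less evenly. Fgf17 changed by -1.12 in replicates 1 and 2 (limma adjusted p = 0.00250) and by -0.46 in replicates 3 and 4 (adjusted p = 0.258). Fgf15 changed by -0.47 in replicates 1 and 2 (limma adjusted p = 0.0111) and by 0.14 in replicates 3 and 4 (adjusted p = 0.469). Fgf5 changed by -0.16 in replicates 1 and 2 (limma adjusted p = 0.643) and by 0.98 in replicates 3 and 4 (adjusted p = 0.0641).

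In each of these 3 ligands the change lay higher in replicates 3 and 4. The test of the difference itself, the interaction of group and replicate pair, gave unadjusted p-values of 0.00276 for Fgf5, 0.00219 for Fgf15, 0.00429 for Fgf4 and 0.0149 for Fgf17, and limma adjusted p-values of 0.110, 0.101, 0.132 and 0.238 over all probe sets, so no member passed. Across the array 0.777% of probe sets passed this test. With the replicate pairs as a block the brightest Fgf17 probe set was called (limma adjusted p = 0.0148) and so was 1421523_at (adjusted p = 0.00271), which made 3 of the 9 genes, beside 27.1% of all genes with this block. The calls of Fgf17 thus depend on how the replicate pairs are treated, and what separates the pairs was not tested.

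**Figure D3:**
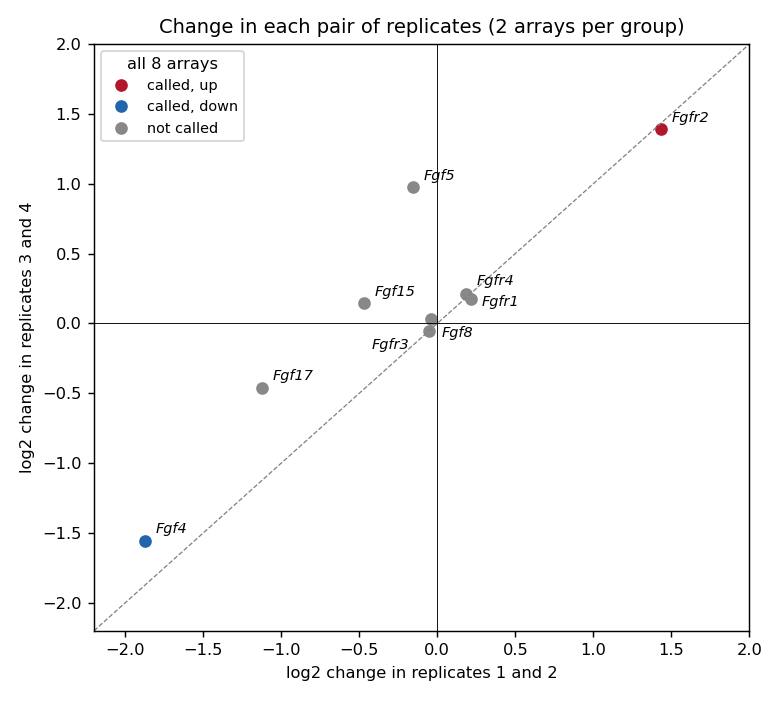
Change on the log2 scale (knock-down minus Luc) of each FGF ligand and receptor in replicates 1 and 2 (horizontal axis) and in replicates 3 and 4 (vertical axis), 2 arrays per group in each. The dashed line marks equal changes; Fgf4 and Fgfr2 lie near it, Fgf17 (-1.12 and -0.46) has the same sign on both axes, and Fgf15 (-0.47 and 0.14) and Fgf5 (-0.16 and 0.98) lie above it with opposite signs.

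Among genes measured on the array, Fgf4 and Fgf15 are direct neighbours on chromosome 7 in the RefSeq gene order of GRCm38.p6. Genes without a measured probe set were skipped in this order. Fgf3, another FGF ligand, precedes Fgf4, with Ano1, which encodes a chloride channel, farther out on that side. On the other side Fgf15 is followed by LTO1 and by Ccnd1, which encodes cyclin D1. Only Fgf4 was called among these 6 genes at their brightest probe sets. Fgf3 was dim (3.91 in the knock-down and 3.97 in the Luc control), and Ano1, LTO1 and Fgf15 changed by -0.09, -0.13 and -0.16. Within replicates 1 and 2 LTO1 changed by -0.29 (limma adjusted p = 0.0416) and Fgf15 by -0.47 (adjusted p = 0.0111). In replicates 3 and 4 LTO1 changed by 0.03 (limma adjusted p = 0.898) and Fgf15 by 0.14 (adjusted p = 0.469). Ccnd1 read 12.79, 12.71, 12.70 and 12.74 in the knock-down and 12.82, 12.79, 12.63 and 12.73 in the Luc control, with a change of -0.006 (95% interval -0.11 to 0.10, limma adjusted p = 0.979). Of its 3 probe sets, 1 was called as lower, with means of 10.08 in the knock-down and 10.37 in the Luc control (limma adjusted p = 0.0126). The change of Fgf4 was below that of Fgf15 by 1.55 ± 0.08 and below that of Ccnd1 by 1.71 ± 0.08 (SE, exact two-sided permutation p = 0.0286 each, the smallest possible, and 0.0286 adjusted over the 4 pairs). Fgfr2 lies elsewhere on the same chromosome, between the measured genes 1700102J08Rik and Ate1, which encodes an arginyltransferase. The first neighbour was dim (1.95 in both groups), and Ate1 averaged 9.10 in the knock-down and 9.08 in the Luc control at its brightest probe set. Its change was not called (0.02, limma adjusted p = 0.950), while 1 of its 5 probe sets was called as lower. Fgfr2 exceeded Ate1 in its change by 1.40 ± 0.16 (SE, exact permutation p = 0.0286, adjusted 0.0286). The permutation p-values of these pairs add nothing to the calls, since the pairs were chosen after the values had been seen.

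**Figure D4:**
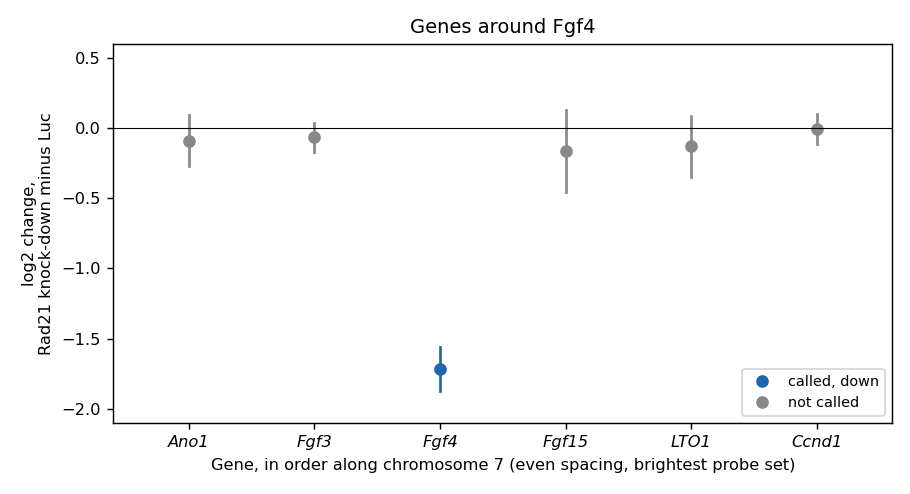
Change on the log2 scale (knock-down minus Luc) for Fgf4 and genes around it (brightest probe sets), in their order along chromosome 7 with even spacing, with 95% intervals from limma (4 arrays per group). Fgf4 lies at -1.71 and was called as lower, while the intervals of Ano1, Fgf3, Fgf15, LTO1 and Ccnd1 all include 0.

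The rest of the pathway was read from 5 gene lists with 56 measured genes. Of these, 10 rose, 5 fell and 41 were not called, so 26.8% were called, beside 22.6% of all genes. Among the other 13 secreted FGFs, 1 was called at its brightest probe set. Fgf18, which belongs with Fgf8 and Fgf17 in a subfamily, read 7.84, 7.80, 8.45 and 8.36 in the knock-down and 5.37, 5.50, 6.18 and 6.24 in the Luc control. Its change of 2.29 ± 0.26 (SE, limma adjusted p = 9.95e-04) was of the opposite sign to those of the Fgf17 probe sets, neither of which was called. The remaining 12 secreted ligands had means from 1.696 to 3.905 in the knock-down and from 1.706 to 3.969 in the Luc control, all dim, and the list's median change was -0.0039, beside 0.0033 over all genes. Among these 12, Fgf1 had 1 of its 3 probe sets called as higher, within the dim range (2.94 in the knock-down and 2.55 in the Luc control, limma adjusted p = 0.0181).

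Of the 4 intracellular FGFs, which stay in the cell and do not act through these receptors in the usual way, Fgf13 rose. This regulator of sodium channels averaged 8.82 ± 0.10 in the knock-down and 7.31 ± 0.15 in the Luc control (SD, n = 4 each), a change of 1.51 ± 0.08 (SE, limma adjusted p = 4.58e-05), at 1 of its 2 probe sets. Among 10 co-receptors and extracellular partners 3 rose and none fell, with a list median of 0.04. Fgfbp1 and Fgfbp3 encode secreted carriers that bind FGFs and release them from the matrix. Fgfbp1 read 13.36, 13.35, 13.04 and 13.09 in the knock-down and 10.77, 10.90, 10.36 and 10.28 in the Luc control, or 6.19-fold higher (change 2.63 ± 0.16, SE, limma adjusted p = 7.07e-05). Fgfbp3 read 6.54, 6.62, 6.51 and 6.57 in the knock-down and 4.34, 3.66, 3.83 and 3.73 in the Luc control, a change of 2.67 ± 0.14 (SE, limma adjusted p = 3.78e-05). The Luc control mean of Fgfbp3, 3.89, is dim, so the rise is given as at least 5.56-fold, with dim arrays raised to 4. Neither pair of groups overlapped. Flrt3, a membrane protein that binds FGF receptors in Xenopus, rose by 1.22 ± 0.10 (SE, limma adjusted p = 3.06e-04), and both of its probe sets were called.

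Changes in the adaptors and the kinase cascade were smaller and went both ways. Of the 15 genes of this list analysed here 3 rose and 3 fell, and the median was -0.02. Of the other 9, 2 had further probe sets called as higher and 1 a further probe set called as lower. Higher values were found for Sos2, a Ras exchange factor (0.78, limma adjusted p = 0.00228), Ptpn11, the phosphatase Shp2 (0.31, adjusted p = 8.27e-04), and Plcg1, a phospholipase bound by the receptors (0.27, adjusted p = 0.0131). Lower values were found for the adaptor Grb2 (-0.57, limma adjusted p = 0.0106), for Map2k1, which encodes MEK1 (-0.43, adjusted p = 0.0186), and for the docking protein Frs3 (-0.34, adjusted p = 0.0461). Some of these calls were fragile. Frs3 was called in 1 of the 8 fits that left out an array, with adjusted p-values up to 0.120 in limma. Its groups overlapped, and it was not called with the replicate pairs as a block (limma adjusted p = 0.0587). Map2k1 was lost without replicate 4 of the knock-down (limma adjusted p = 0.0509). Plcg1 passed in neither pair of replicates on its own (limma adjusted p = 0.0595 and 0.0758).

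Feedback inhibitors and targets of ERK split as well, with 2 genes higher and 2 lower of 14 measured and a median of -0.06. With the replicate pairs as a block, a count added after the values were seen, 4 were higher and 4 lower, so the count of this list depends on how the pairs are treated. Ier3 and Spred1, also named after their values were seen, passed the interaction of group and replicate pair (limma adjusted p = 0.0189 and 0.0397). Ier3 changed by -1.56 in replicates 1 and 2 and by -0.02 in replicates 3 and 4. Spred1 changed by 0.07 and by -0.30 in the same pairs. Neither was called over all arrays. Etv4, an ETS transcription factor induced by FGF signals, read 5.73, 5.73, 5.73 and 5.85 in the knock-down and 7.30, 7.32, 7.80 and 8.13 in the Luc control, a change of -1.88 ± 0.18 (SE, limma adjusted p = 5.88e-04) at 1 of its 2 probe sets. Spry1, a Sprouty inhibitor of the cascade, was lower (change -0.49, limma adjusted p = 0.0102), although neither pair of replicates passed on its own (adjusted p = 0.0553 and 0.151). Both higher genes encode inhibitors. Il17rd, a membrane inhibitor of FGF receptors, changed by 0.60 (limma adjusted p = 0.00107), and Dusp6, a phosphatase of ERK, by 0.22 (adjusted p = 0.00254). Dusp6 passed in replicates 3 and 4 alone (limma adjusted p = 0.0279) but not in replicates 1 and 2 (adjusted p = 0.109). Spry4, named here after its values were seen, was at 10.28, 10.40, 10.71 and 10.86 in the knock-down and 11.05, 10.89, 11.60 and 11.32 in the Luc control. Its groups lay apart by a small margin, and it was not called at the brightest probe set (change -0.65, limma adjusted p = 0.0592), while 2 of its 4 probe sets were called as lower. With the replicate pairs as a block the brightest was called too (limma adjusted p = 0.00152). Of the 15 called pathway genes, 8 have a single probe set, and in 6 at least 1 further probe set was not called. None had probe sets called in opposite directions.

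**Figure D5:**
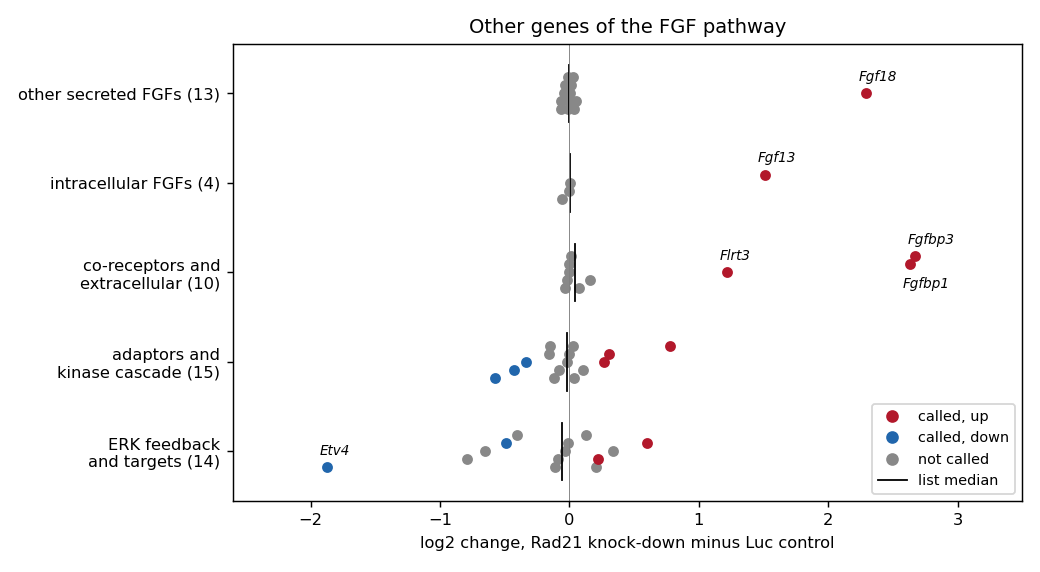
Change on the log2 scale (knock-down minus Luc) for the measured genes in 5 lists of the FGF pathway, with the number measured in parentheses (brightest probe set, 4 arrays per group); vertical bars are list medians and height within a row has no meaning. Most genes lie near 0, Fgf18, Fgf13, Fgfbp1, Fgfbp3 and Flrt3 lie at 1.22 or above, and Etv4 lies at -1.88.

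Markers of cell states moved between the same groups, so their values stand beside those of Fgf4 and Fgfr2. A summed level adds unlogged values over the brightest probe sets of a list and is weighted to its brightest members. Of 8 stem cell markers 6 were lower in the knock-down and none was higher, and the log2 of their summed level was 17.40 to 17.45 in the knock-down and 17.71 to 17.76 in the Luc control. None of the 8 was dim in either group, in cells labelled as ESCs. Of 10 primitive endoderm markers 2 were higher (Foxa2 by at least 3.40 over a dim control, and Amn by 0.90), while the defining markers Gata4, Gata6, Sox17 and Pdgfra were on the dim plateau in both groups. The log2 sum of this list was 8.11 to 8.52 in the knock-down and 6.71 to 7.04 in the Luc control, and without Foxa2 7.16 to 7.21 in the knock-down and 6.62 to 6.97 in the Luc control. Of 10 trophoblast markers 2 were higher (Krt7 by at least 2.53 and Cdx2 by at least 0.67, both over dim controls) and Tfap2c was lower (-0.66), with Elf5, Gata3 and Hand1 dim and overlapping log2 sums of 12.91 to 13.57 in the knock-down and 12.92 to 13.42 in the Luc control. Krt8 and Krt18 had changes of 0.52 and 0.47 that were not called over all arrays but were with the replicate pairs as a block (limma adjusted p = 0.00105 and 9.86e-04). Eomes and Ascl2 had changes of -0.06 and -0.32 and were called in neither fit. In replicates 1 and 2 alone both were lower, by 0.49 and 0.62 (limma adjusted p = 0.00791 and 0.00630). Replicates 3 and 4 alone did not pass for Eomes or Ascl2 (limma adjusted p = 0.185 and 0.944). Primed epiblast markers went both ways, 4 higher and 3 lower of 9 (log2 sums 14.52 to 14.75 in the knock-down and 14.48 to 14.55 in the Luc control), and 5 were higher with the pairs as a block. Cdh2, among the higher ones, changed by 0.69 in replicates 1 and 2 and by 1.23 in replicates 3 and 4. Its interaction of group and replicate pair passed (limma adjusted p = 0.0383).

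Of 9 measured neural markers 1 was higher and 3 were lower (log2 sums 13.51 to 13.69 in the knock-down and 14.02 to 14.21 in the Luc control), and of 10 streak and mesoderm markers none was called and 9 were dim (log2 sums 7.43 to 7.54 in the knock-down and 7.17 to 7.78 in the Luc control). The neural marker Pax6, not called over all arrays, changed by 0.91 in replicates 1 and 2 and by 0.09 in replicates 3 and 4. Its interaction of group and replicate pair passed (limma adjusted p = 0.0318). The methods describe the R1/E culture as feeder-free. Of 10 fibroblast markers 8 were dim in both groups and Thy1 alone was called, as lower (-0.56). Its mean was 3.96 in the knock-down, which is dim, and 4.53 in the Luc control. Col3a1 read 4.69, 4.25, 3.11 and 3.42 in the knock-down and 3.15, 3.10, 3.03 and 3.002 in the Luc control. Only replicates 1 and 2 of the knock-down were above the dim range, and it was called within that pair (limma adjusted p = 0.0127) but not over all arrays (adjusted p = 0.189). The fibroblast log2 sums overlapped, at 6.93 to 7.15 in the knock-down and 6.72 to 7.17 in the Luc control. Col1a1, Col1a2, Lum and Dcn were dim in both groups. Pdgfrb was not dim, with means of 5.80 in the knock-down and 5.58 in the Luc control, and was not called (limma adjusted p = 0.399). It changed by -0.15 in replicates 1 and 2 and by 0.61 in replicates 3 and 4, and neither pair passed. The part that changes in cell state play in the values of the FGF genes was not tested.

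Over the 8 arrays, the genes whose brightest probe set followed Fgf4 most closely were Prdm14, a regulator of pluripotent and germ cells, Cdyl2, Pcsk6, Orc1, a subunit of the origin recognition complex, and Cdc37l1, all with Pearson's r of 0.998. Those closest to Fgfr2 were Phldb1 (r = 0.997), Usp27x (0.994), Cyyr1 (0.993), the receptor Notch2 (0.993) and Ilk, a kinase at integrin adhesions (0.991). These coefficients describe 8 arrays in 2 groups and are set mainly by the difference between the groups. Prdm14 changed by -2.25 and Pcsk6 by -1.54, beside -1.71 for Fgf4, and Cyyr1 changed by 1.80 and Notch2 by 0.77, beside 1.41 for Fgfr2.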

How the data were processed

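Total RNA of R1/E cells was measured on 8 Affymetrix Mouse Genome arrays, 4 per group, and groups and replicate numbers came from the labels. The deposited log2 values were made by the authors with GCRMA in Partek 6.4, with settings beyond this not given in the sources used here. GCRMA brings all arrays to a similar distribution, so a shift of the whole transcriptome cannot be seen, and it compresses dim values. The table had 45101 rows, of which 64 control probe sets were left out, and 0 columns of values stayed unused. Symbols came from the platform annotation (34945 probe sets with a single symbol), and the Entrez IDs of all 9 members were found in RefSeq (GRCm38.p6), which was used for names and gene order. Because the files state no genome build, coordinates are given only for RefSeq promoters.

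Groups were compared with limma 3.58.1 (lmFit and eBayes, statmod 1.5.0, R 4.3.3), two-sided, without a block or filter, in place of the plain analysis of variance in the methods. P-values were adjusted over 45037 probe sets. The test was checked on simulated data with independent noise on each array, so the check did not cover the separation of the replicate pairs. Figures were drawn with matplotlib 3.10.9. P-values measure the spread between arrays that the labels call biological replicates. The culture history of the replicates is not described further.

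The members, gene lists and tests were chosen with earlier results of these data known. Named genes are all members, all called genes of the 5 pathway lists (up to 5 per direction), the 5 genes most alike Fgf4 and Fgfr2, their neighbours, and Rad21. The markers named singly, Spry4, Ier3, Spred1, the bounds for dim groups and the 4 pairs of genes were chosen after their values were seen. Alternatives were the methods' t-test, a variance trend with a robust prior, 2 blocks, fits within replicate pairs, quantile normalization, array weights, centring on bright probe sets, only probe sets with a mean of at least 4, no probe sets with _x_at or _s_at names, an adjusted p under 0.01, the mean of a gene's probe sets, and leaving out each array.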

Additional observations from a re-analysis of the deposited data

Results flagged for a closer look

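In 2 of 46 groups of 4 arrays (23 probe sets in each condition) 1 array lay far from the others, by the ratio of its gap to the range of the group. Chance flags about 1 in 20 groups, so 2 of 46 is near that rate. At the Fgf5 probe set 1426186_a_at, replicate 4 of the knock-down read 1.794 and the nearest other array 1.773, a gap of 0.951 of the range. At the Fgfr4 probe set 1427777_x_at, replicate 1 of the knock-down read 2.136 and the nearest other array 2.181, a gap of 0.856 of the range. Both probe sets were dim in both groups and neither was called.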

How the results depend on the processing

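Fgf4 and Fgfr2 kept their direction and their call in all 20 alternatives run for each of them. The count of member genes called was 2 and became 4 in replicates 1 and 2 alone, where Fgf17 and Fgf15 were added. With the replicate number as a block it was 3 (8 probe sets of the members, 6224 of all probe sets), Fgf17 being called with a limma adjusted p of 0.0455. The residuals of arrays with the same number correlated at 0.02, 0.13, 0.07 and 0.13, so the numbers are not taken to pair the arrays. Not every array correlated best with the array of its own number. Leaving out 1 array gave 2 to 3 member genes, 6 to 7 member probe sets and 5395 to 6210 of all probe sets, against 6697 with all arrays. In the list of ERK feedback genes and targets, 4 genes were called, against 6 with the replicate block or with a minimum mean of 4 and 8 with the replicate pairs as a block, the last an alternative chosen after seeing the data. Directions that reversed all belonged to genes that were not called. Fgf15 was at 0.14 in replicates 3 and 4 alone and Fgf5 at -0.16 in replicates 1 and 2 alone. Fgf8, which is dim, lay between -0.023 and 0.010 when 1 array was left out. It was at 0.030 in replicates 3 and 4 alone, 0.023 with centring on bright probe sets, 0.018 with array weights, 0.010 without replicate 1 of the Luc control and 0.0026 without replicate 2 of the Luc control. Fgf17 was also called by limma with a minimum mean of 4 (adjusted p = 0.0427), and Fgfr3 after quantile normalization (-0.13, adjusted p = 0.0101). The cause of these differences was not tested. Differences at dim probe sets are limited by the signal over background.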
